A study of Mus musculus with 4 samples.

Results

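Fxyd1, Fxyd2, Fxyd3, Fxyd5, Fxyd6, Atp1b1 and Atp1b3 encode FXYD regulators and beta subunits of the sodium pump, and their RNA was followed in a mouse hepatocyte line with and without a hairpin against Safb. The 7 genes were taken by symbol from a table of 52192 gene identifiers, and each symbol matched 1 row. The set was built around the higher level of Fxyd2 in the knockdown libraries, so the differences of these 7 genes between the groups are a description and carry no test. AML12 is an immortalised hepatocyte line from a mouse transgenic for human TGF-alpha. The study compared AML12 cells infected with lentivirus carrying a control hairpin (shCtrl, 2 libraries) with cells carrying a hairpin against Safb (shSafb, 2 libraries), where Safb encodes a nuclear matrix protein. All 4 libraries came from cells grown with 10% fetal bovine serum, an insulin, transferrin and selenium supplement and 0.1 uM dexamethasone, a synthetic glucocorticoid, and collected 5 days after infection. The labels do not say how many hairpins were used or whether replicates were separate cultures, so each p-value reflects no more than the spread among these libraries, part of which may be technical.

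The sodium pump, or Na,K-ATPase, moves sodium out of the cell and potassium in, and the sodium gradient it makes drives many other transporters, among them those for bile acids and amino acids in hepatocytes. Its alpha subunit hydrolyses ATP and moves the ions. The beta subunit is a glycoprotein that the alpha subunit needs to fold and reach the cell surface. FXYD proteins are small membrane proteins with a single membrane span, named after a short conserved motif, which bind the pump and tune its affinity for ions in a tissue-specific way. Fxyd2, the gamma subunit, is best known from the kidney tubule and Fxyd1, or phospholemman, from heart and skeletal muscle.

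The coding bases of the motif are shown for the 5 FXYD genes, because they are what makes these genes 1 family. Each line gives 48 coding bases from GENCODE transcripts on mm10, with the 12 bases of the 4 codons for F, any residue, Y and D in capitals.
Fxyd2: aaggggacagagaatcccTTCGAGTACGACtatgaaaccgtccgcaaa
Fxyd6: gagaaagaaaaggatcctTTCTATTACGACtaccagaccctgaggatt
Fxyd5: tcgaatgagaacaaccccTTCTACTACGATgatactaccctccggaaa
Fxyd1: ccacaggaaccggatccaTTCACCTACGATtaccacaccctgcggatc
Fxyd3: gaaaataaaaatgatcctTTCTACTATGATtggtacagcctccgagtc
The stretch of Fxyd2 lies within chr9:45408117-45408319 on the plus strand and contains 1 intron in the genome. The stretches differed from gene to gene. Over the whole stretch, motif included, Fxyd6 and Fxyd5 each matched Fxyd2 at 28 of 48 bases, Fxyd1 at 25 and Fxyd3 at 24. Within the capitals alone the matches were 10, 9, 8 and 8 of 12 bases in the same order.

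The values were the authors' deposited TPM, abundances corrected for transcript length and set to a common sum per library, so levels of different genes can be set side by side. TPM keeps no read totals, so the depth is unknown. The number of genes at 1 TPM or more ran from 12946 to 13117 over the libraries. Safb itself was at 23.8 and 23.3 TPM in the shCtrl libraries and at 15.8 and 15.0 TPM in the shSafb libraries. Its log2 change was -0.56 ± 0.07 (SE; limma, Benjamini-Hochberg adjusted p = 0.00411). All 9 hepatocyte markers checked, among them Alb, Ttr and Hnf4a, averaged over 1 TPM, and their summed level was 9520 to 9570 TPM in shCtrl and 13370 to 13540 TPM in shSafb. The higher sum was that of Trf, the transferrin gene, at 2453 and 2418 TPM in shCtrl and at 6814 and 6778 TPM in shSafb. Alb, the albumin gene, was at 378 and 346 against 122 and 127 TPM, and Apoa1, an apolipoprotein gene, at 56.4 and 56.4 against 28.2 and 28.1 TPM. Fewer cells of a type and less RNA per cell cannot be told apart in these bulk samples.

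Fxyd2 (ENSMUSG00000059412) occupies bases 45399669 to 45410278 of chromosome 9 in mm10, plus strand. It was at 1.48 and 2.67 TPM in the shCtrl libraries and at 24.3 and 21.3 TPM in the shSafb libraries. Both knockdown libraries lay far above both control libraries, and no value of one group came near the other. The mean went from 2.08 ± 0.847 to 22.8 ± 2.08 TPM (SD, n = 2 each), a ratio of 11.0. On the log2(scaled TPM + 1) scale, which understates the change of low genes, the change was 2.99, and the 4 differences between a knockdown and a control library ran from 2.60 to 3.39. The shCtrl libraries themselves differed 1.81-fold in Fxyd2, against 1.14-fold between the shSafb libraries. The size of the change therefore rested on which control was used: it was 2.68 without shCtrl replicate 1 and 3.29 without shCtrl replicate 2. Among 13111 genes with a mean of at least 1 TPM, only 6 had a larger positive change by this measure.

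**Figure D1:**
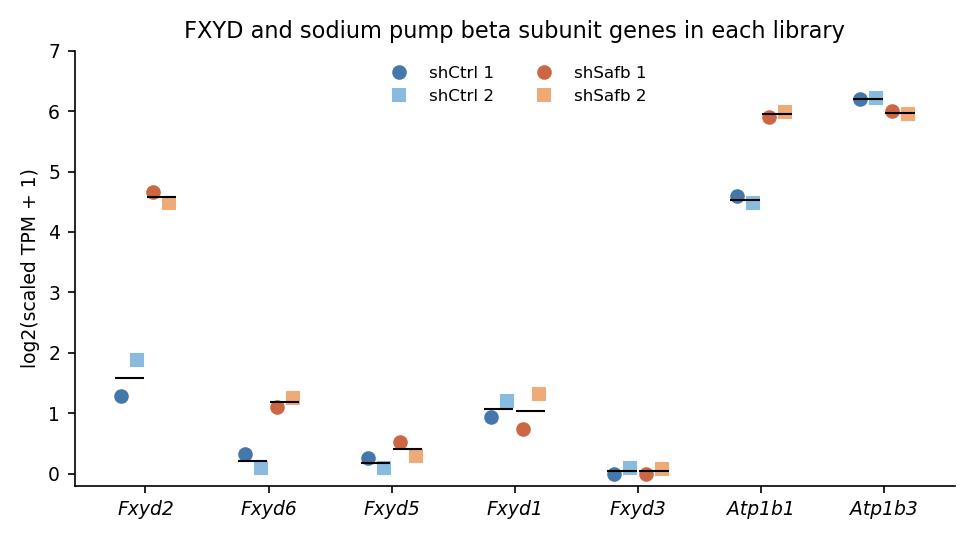
Level of the 5 FXYD genes and 2 beta subunit genes in each library, as log2(scaled TPM + 1); points are libraries and black lines are group means of 2. The shSafb points of Fxyd2 sit at 4.67 and 4.49 against 1.28 and 1.89 in shCtrl, Atp1b1 is also higher, and Fxyd1 and Fxyd3 overlap between the groups.

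The other FXYD genes were low, with no library of either group above 1.5 TPM. Fxyd6, or phosphohippolin, was at 0.253 and 0.0624 TPM in shCtrl and at 1.14 and 1.38 TPM in shSafb. Its groups did not overlap, and its log2 change was 0.98, which is 2.02 less than that of Fxyd2. The ratio of mean TPM was 7.99, but it rests on a control mean of 0.158 ± 0.135 TPM, in which the libraries differed 4.06-fold. Fxyd5, or dysadherin, known for weakening E-cadherin adhesion, was at 0.205 and 0.0649 TPM in shCtrl and at 0.426 and 0.227 TPM in shSafb. The higher control library and the lower knockdown library nearly met, the lowest of the 4 log2 differences was 0.04, and all 4 values were under 1 TPM.

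Fxyd1 was the only other FXYD gene with a mean of at least 1 TPM over the libraries. It was at 0.951 and 1.28 TPM in shCtrl and at 0.659 and 1.49 TPM in shSafb. The control values lay inside the range of the knockdown values, and the log2 change was -0.04. The direction of Fxyd1 depended on the libraries used, at 0.26 without shSafb replicate 1, 0.08 without shCtrl replicate 2 and -0.17 without shCtrl replicate 1. Fxyd3, known as Mat-8 and from epithelia, was listed at 0 in shCtrl replicate 1 and shSafb replicate 1 and at 0.0689 and 0.0536 TPM in the others. Its groups overlapped, so no change of Fxyd3 could be read from these libraries. Of its 4850 exonic bases, 2059 overlap Lgi4 on the opposite strand, and the sources used here do not say whether reads were counted by strand.

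Atp1b1 and Atp1b3 encode the beta subunits present in these cells, and they went opposite ways. Atp1b1 (ENSMUSG00000026576, chromosome 1 from 164437109 to 164458355, minus strand) was at 23.8 and 21.1 TPM in shCtrl and at 58.5 and 61.9 TPM in shSafb. The replicates lay close together and the groups were well apart. Its mean went from 22.5 ± 1.93 to 60.2 ± 2.40 TPM, a ratio of 2.68, with a log2 change of 1.41 (1.32 to 1.51 over library pairs). Atp1b3 (ENSMUSG00000032412, chromosome 9 from 96332655 to 96364442, minus strand) was at 74.5 and 72.8 TPM in shCtrl and at 62.9 and 60.3 TPM in shSafb. Both knockdown libraries were below both controls, by a small margin. The mean went from 73.7 ± 1.19 to 61.6 ± 1.80 TPM, a log2 change of -0.23 (-0.27 to -0.19 over library pairs). By size, the change of Atp1b3 ranked 7917 among the 13111 tested genes, and that of Atp1b1 ranked 302.

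The neighbouring gene Nme7 shares 575 of the 3081 exonic bases of Atp1b1 on the opposite strand, so the value of Atp1b1 is uncertain to that extent. Nme7 itself fell from 23.7 and 23.3 to 13.8 and 13.1 TPM (log2 change -0.74 ± 0.07, limma adjusted p = 0.00226), the opposite direction to Atp1b1. The pseudogene Gm1848 matches a transcript of Atp1b3 over 805 bases at 96.4% identity and was listed at 0 in every library.

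**Figure D2:**
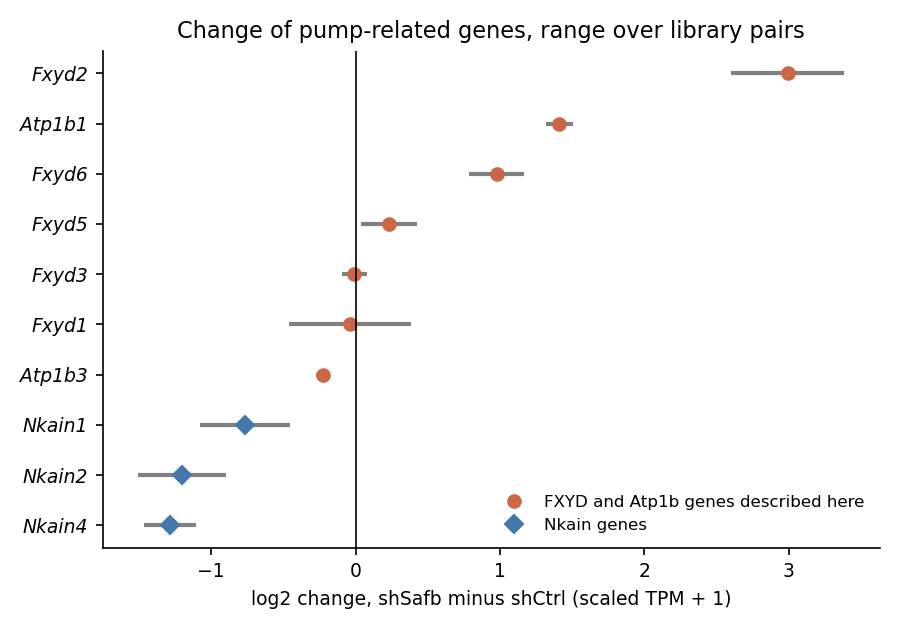
Log2 change (shSafb minus shCtrl) of the 7 genes and of the 3 tested Nkain genes; points are differences of group means and grey lines run from the lowest to the highest of the 4 differences between a knockdown and a control library. Fxyd2 lies at 2.99, Atp1b1 at 1.41 and Fxyd6 at 0.98, while Fxyd1 and Fxyd3 lie within 0.1 of 0.

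Of the 7 genes, 4 reached a mean of 1 TPM and were among the 13111 genes tested: Fxyd1, Fxyd2, Atp1b1 and Atp1b3. The groups did not overlap in 3 of these 4, which compares with 74.7% of all tested genes, and nothing is read from that count because the set was chosen on this contrast. The median log2 change of the 4 genes was 0.69, against 0.00 over all tested genes. For the same reason nothing is read from that median either. The remaining 3, Fxyd3, Fxyd5 and Fxyd6, were not tested, and in 2 of them the groups did not overlap. The 74.7% covers tested genes only and is no comparison for these low genes, so nothing is read from that count either.

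Ranked within a group, the levels gave this order. In shCtrl, Atp1b3 was highest at 73.7 TPM, followed by Atp1b1 at 22.5, Fxyd2 at 2.08 and Fxyd1 at 1.12 TPM, where the lower Fxyd2 library (1.48 TPM) lay just above the higher Fxyd1 library (1.28 TPM). Fxyd6, Fxyd5 and Fxyd3 followed with values that overlapped between libraries. In shSafb, Atp1b3 (60.3 to 62.9 TPM) and Atp1b1 (58.5 to 61.9 TPM) overlapped and shared the top. Fxyd2 was next at 22.8 TPM, and Fxyd6 and Fxyd1 overlapped at 1.26 ± 0.167 and 1.08 ± 0.591 TPM. Fxyd2 was thus the only one of the 5 FXYD genes that came within 3-fold of a beta subunit gene in the knockdown libraries: it stood at 41.4% and 34.4% of the level of Atp1b1, against 6.20% and 12.7% in the controls.

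As a share of the summed TPM of all 7 mouse FXYD genes in the table, Fxyd2 held 51.2% and 64.4% in shCtrl and 91.6% and 87.1% in shSafb. The total went from 2.89 and 4.15 TPM to 26.5 and 24.5 TPM. Fxyd1 held 32.9% and 30.8% of it in shCtrl and 2.49% and 6.11% in shSafb, although its own level overlapped between the groups. Fxyd4 and Fxyd7, the remaining genes of the family, known from kidney collecting duct and colon and from brain, were listed at 0 in all 4 libraries. Among the 4 Atp1b genes, Atp1b1 held 24.2% and 22.5% of the TPM in shCtrl and 48.2% and 50.6% in shSafb. Atp1b3 was 3.13 and 3.45 times as abundant as Atp1b1 in the controls and 1.07 and 0.974 times in the knockdown libraries.

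**Figure D3:**
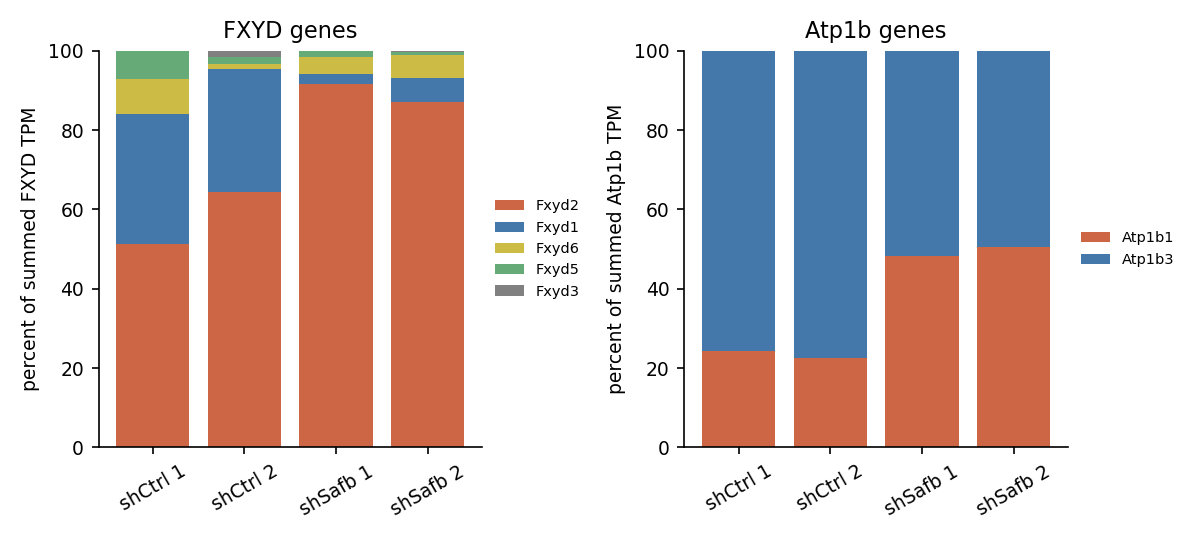
Share of the summed TPM held by each gene in each library, for the FXYD genes (left) and the Atp1b genes (right). Fxyd2 fills 51.2% and 64.4% of the FXYD bar in shCtrl and 91.6% and 87.1% in shSafb, and Atp1b1 goes from 24.2% and 22.5% to 48.2% and 50.6%.

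Nkain genes encode membrane proteins named for their interaction with the pump, and the 3 tested ones were all lower in shSafb. Nkain4 fell from 10.5 and 10.7 to 4.17 and 3.26 TPM (log2 change -1.29 ± 0.13, limma adjusted p = 0.00283). Nkain2 fell from 5.19 and 3.63 to 1.11 and 1.49 TPM (-1.20 ± 0.19, limma adjusted p = 0.00842). Nkain1 fell from 4.35 and 2.97 to 1.46 and 1.91 TPM (-0.77 ± 0.19, limma adjusted p = 0.0304). The call of Nkain1 was lost without shCtrl replicate 1 (limma adjusted p = 0.110), without shSafb replicate 1 (0.110), without shSafb replicate 2 (0.0581) and with no filter on low TPM (0.0797; 0.0249 to 0.110 over 13 alternatives). In the list of 12 pump subunits, FXYD genes and Nkain genes outside the 7, 5 were tested, of which 1 was higher, 3 were lower and 1 did not pass. Over all tested genes, 21.9% were higher and 22.4% lower, 44.3% in all.

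The wider sodium and cation transport genes were taken from 3 further lists. Sodium channels, exchangers and cotransporters had 24 tested genes of 48, with 9 higher, 3 lower and 12 that did not pass (median log2 change 0.21, against 0.00 over all tested genes). Of all tested genes, 21.9% were higher and 22.4% lower. Slc5a3, the sodium-coupled myo-inositol transporter, rose from 3.86 ± 0.0524 to 16.0 ± 0.0391 TPM (1.82 ± 0.08, limma adjusted p = 6.77e-04). It overlaps Mrps6 on the same strand at 159 exonic bases. Slc1a5, a neutral amino acid transporter, rose by 1.06 ± 0.08 on the log2 scale and Slc4a7, a sodium bicarbonate cotransporter, by 0.82 ± 0.10. Slc23a2, a sodium-coupled vitamin C transporter, fell from 42.0 ± 2.42 to 22.7 ± 0.267 TPM (-0.83 ± 0.06, limma adjusted p = 0.00120).

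Slc9a9, an endosomal sodium proton exchanger, fell by 0.74 on the log2 scale, a call lost without shCtrl replicate 1 (limma adjusted p = 0.0649) or shCtrl replicate 2 (0.0616; 0.0113 to 0.0649 over 13 alternatives). Slc20a2, a sodium phosphate cotransporter, fell by 0.62, a call lost without shCtrl replicate 1 (limma adjusted p = 0.0509; 0.00734 to 0.0509 over 13 alternatives).

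Of 12 genes of other P-type cation pumps, 4 were tested, with 2 higher and 1 lower. The catalytic subunits of these pumps share the fold of the sodium pump alpha subunit. Atp2b1, a calcium pump of the plasma membrane, rose from 10.3 ± 1.70 to 23.4 ± 3.06 TPM and Atp2c1, a calcium and manganese pump of the Golgi, from 25.5 ± 1.59 to 38.3 ± 0.412 TPM. Atp2c1 shares 1837 of 9694 exonic bases with Aste1 on the opposite strand. Atp2a2, the calcium pump of the endoplasmic reticulum, fell from 211 ± 6.45 to 144 ± 3.48 TPM (-0.52 ± 0.04, limma adjusted p = 0.00166). Of 18 kinases, ligases and transcription factors of sodium handling, 15 were tested, with 7 higher, 0 lower and 8 that did not pass. The counts of both lists stand beside 21.9% higher and 22.4% lower over all tested genes. Nedd4, a ubiquitin ligase, rose from 226 ± 9.25 to 554 ± 139 TPM.

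Wnk1, a kinase that controls sodium chloride cotransport, was higher by 0.61 (limma adjusted p = 0.0453). That call was lost under 7 of 13 alternatives, among them without shSafb replicate 1 (0.122) and without shSafb replicate 2 (0.122), with a range of 0.00920 to 0.122.

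Over the 4 lists together, 48 of 90 genes were tested, with 19 higher (39.6%), 7 lower (14.6%) and 22 that did not pass, beside 21.9% and 22.4% of all tested genes. The number lower was 4 without shCtrl replicate 1. The median log2 change was 0.14, and members of a list are not independent of each other. The lists were chosen with earlier results of these data known, so nothing is read from their shares or medians.

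**Figure D4:**
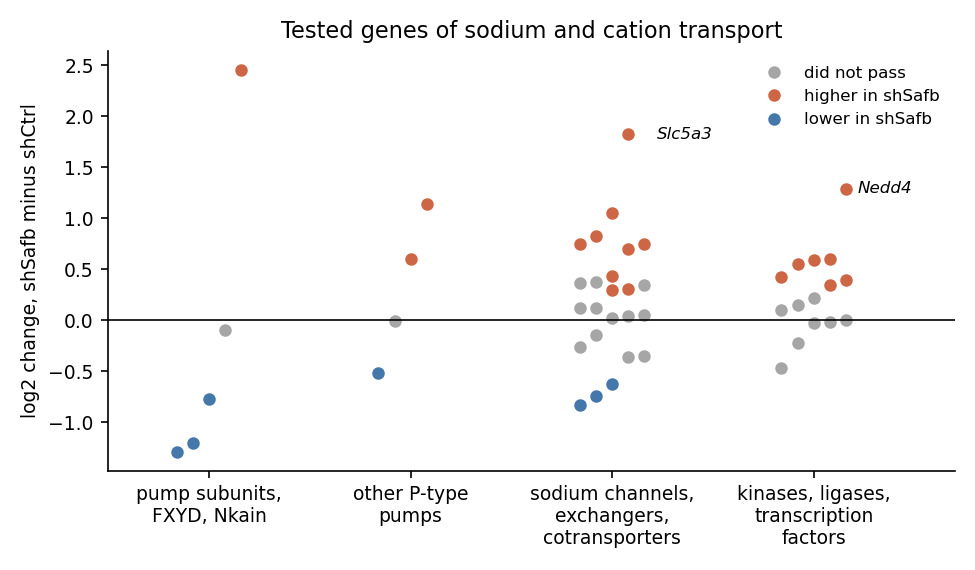
Log2 change (shSafb minus shCtrl, log2(scaled TPM + 1)) of the 48 tested genes in 4 lists of pump and transport genes outside the 7; each point is a gene, coloured by whether it passed limma at an adjusted p under 0.05. Slc5a3 at 1.82 and Nedd4 at 1.29 are the highest points of their lists.

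The 5 FXYD genes described here lie in 2 places in the mouse genome. Fxyd6 ends 3510 bases before Fxyd2 on chromosome 9, on the same strand, and both were higher in shSafb. Within 100 kb of either gene, 6 other annotated genes are in the table, and none of them reached the level for testing. Tmprss13, a serine protease gene, was listed at 0 in all libraries and Dscaml1, a cell adhesion gene, at 0 in 3 of 4 and at 0.00692 TPM in shSafb replicate 2. Fxyd5, Fxyd7, Fxyd1 and Fxyd3 lie together on chromosome 7 between 31032722 and 31076704, on the minus strand, and none of these 4 reached 2 TPM in a library.

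Around that chromosome 7 cluster the tested neighbours went both ways. Lsr, a lipoprotein receptor and tricellular junction gene, fell from 142 and 103 to 63.6 and 53.2 TPM (log2 change -1.01 ± 0.16, limma adjusted p = 0.00958), and Gramd1a, a sterol transfer protein gene, by 0.58 on the log2 scale. Counting each gene once, 8 neighbours of the 7 genes were tested, with 1 higher, 3 lower and 4 that did not pass, beside 21.9% and 22.4% over all tested genes. Without either shSafb library the count of higher neighbours was 0, because the gene concerned then averaged under 1 TPM and was not tested, and without shCtrl replicate 1 it was 2, with Usf2 also called (limma adjusted p = 0.0255).

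Promoters are shown for the 2 beta subunit genes, whose RNA went in opposite directions. They are the 250 bases before the start in the RefSeq table on GRCm38.p6, with matches to the GC box GGGCGG, on either strand, in capitals. Atp1b1 is chr1:164458356-164458605 and Atp1b3 is the upstream entry, chr9:96364432-96364681, both on the minus strand.
Atp1b1: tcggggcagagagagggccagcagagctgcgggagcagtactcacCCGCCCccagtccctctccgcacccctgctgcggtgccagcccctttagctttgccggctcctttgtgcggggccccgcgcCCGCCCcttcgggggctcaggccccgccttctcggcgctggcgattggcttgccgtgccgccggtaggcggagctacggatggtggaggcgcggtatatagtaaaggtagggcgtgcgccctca
Atp1b3: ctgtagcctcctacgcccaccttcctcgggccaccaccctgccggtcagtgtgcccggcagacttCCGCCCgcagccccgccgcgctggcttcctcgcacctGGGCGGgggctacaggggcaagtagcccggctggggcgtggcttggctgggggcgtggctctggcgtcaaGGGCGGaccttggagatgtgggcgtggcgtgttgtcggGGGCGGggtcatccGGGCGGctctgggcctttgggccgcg
The Atp1b1 window held 2 GC boxes and this Atp1b3 window 5, while the other Atp1b3 entry, chr9:96363716-96363965, held 0, so the number for Atp1b3 depends on the entry. For comparison, 32.7% of 32851 promoter windows of this length held at least 1. Searched in the same way on both strands, the glucocorticoid receptor motif AGAACA (16.1% of windows) and the TATA box TATAAA (12.4%) had no match in the windows of Fxyd1, Fxyd3, Fxyd5, Fxyd6, Atp1b1 or Atp1b3. Of the 7 genes, 6 had an entry in the table, and Fxyd2 did not. A match or its absence describes these letters only.

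Markers of the tissues in which Fxyd2 and Fxyd1 are best known were checked beside their levels. Of 8 kidney tubule markers, Umod, Slc12a1, Aqp2, Slc34a1 and Kap were listed at 0 in every library. The summed level of the 8 was 27.3 to 30.3 TPM in shCtrl and 32.6 to 33.3 TPM in shSafb, nearly all of it Cdh16, a cadherin gene. Pax8, a kidney and thyroid factor, was at 0.305 and 0.407 TPM in shCtrl and at 1.45 and 1.92 TPM in shSafb. The part of these genes in the level of Fxyd2 was not tested. Muscle markers summed to 1.03 to 1.23 TPM over 6 genes, with Myh6 and Actc1 at 0. Nearly all of that sum was Des, which is also in the fibroblast and stellate list. Tnnt2, a cardiac troponin gene outside the muscle list, was at 9.45 and 10.9 TPM in shCtrl and at 110 and 104 TPM in shSafb. Pancreatic endocrine markers summed to 0.452 to 0.920 TPM over 6 genes, with Ins1, Ins2, Gcg and Sst at 0.

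Bile duct markers summed to 1669 to 1710 TPM in shCtrl and 1540 to 1605 TPM in shSafb over 6 genes. Within the sum, Krt19 was at 320 and 320 against 676 and 679 TPM and Spp1 at 1108 and 1101 against 610 and 671 TPM. Epcam was listed at 0 in both shCtrl libraries and in shSafb replicate 1, and at 0.112 TPM in shSafb replicate 2. The part of these bile duct markers in the levels of the 7 genes was not tested. Neural and glial markers summed to 21.8 to 23.8 TPM in shCtrl and 27.8 to 30.5 TPM in shSafb over 6 genes, nearly all of it Mbp. Blood and macrophage markers summed to 0.542 to 0.722 TPM in shCtrl and 2.17 to 2.37 TPM in shSafb over 5 genes, with Adgre1, Cd3e and Hba-a1 at 0. Most of the shSafb sum was Csf1r, a macrophage growth factor receptor gene, at 0.239 and 0.450 TPM in shCtrl and at 1.92 and 1.72 TPM in shSafb, while Ptprc, the CD45 gene, was between 0.272 and 0.452 TPM in all 4 libraries. Fibroblast and stellate markers stayed at 2.77 to 3.26 TPM over 7 genes, with Lrat at 0, and endothelial markers at 0.0196 to 0.144 TPM over 4 genes, with Cdh5 and Kdr at 0.

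The genes whose pattern over the 4 libraries was nearest to that of Fxyd2 were found by Euclidean distance in log2(scaled TPM + 1), after the mean of the shCtrl libraries was taken away. They were Klf2, a zinc finger transcription factor gene (distance 0.44), Tnnt2, encoding cardiac troponin T (0.51), Afp, the alpha-fetoprotein gene (0.54), and Ly6c1, a surface antigen gene (0.58). Afp was at 2.25 and 2.08 TPM in shCtrl and at 27.7 and 26.9 TPM in shSafb, without overlap. The distance rests on 4 libraries and mainly ranks genes by the size of their rise.

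**Figure D5:**
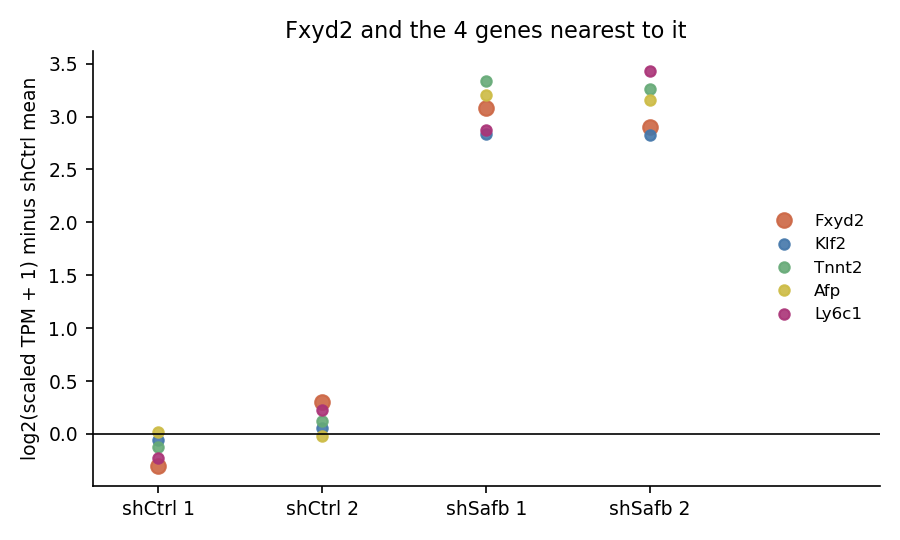
Log2(scaled TPM + 1) in each library, less the mean of the shCtrl libraries, for Fxyd2 and the 4 genes nearest to it; each point is 1 library. All 5 genes lie near 0 in shCtrl and above 2.5 in shSafb, and Fxyd2 has the widest spread between the shCtrl libraries.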

How the data were processed

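RNA from 4 AML12 libraries was measured as the authors' deposited TPM, 1 value per gene and library. HISAT2, HTSeq, StringTie and DESeq2 with mm10 are listed per the submitters' processing notes, without versions, order or annotation. Libraries were strand-specific and ribosomal RNA depleted, per the labels' protocols. Rows were summed for the 6 identifiers listed more than once, and names and coordinates came by identifier from GENCODE mouse release 21. Depth is unknown, which leaves no basis for counting intervals.

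The 13111 genes that averaged 1 TPM or more were scaled by the median ratio to the geometric mean (factors 0.991 to 1.031) and limma was fitted to log2(scaled TPM + 1) (group as the only term, intensity trend, two-sided, Benjamini-Hochberg adjusted p under 0.05). The script was tested on simulated data. Members and lists were chosen with earlier results of these data known. Named genes were the 7 members, the first list in full, the 3 largest called rises and falls of each other list, tested neighbours within 100 kb, markers, Safb and the 5 genes nearest to Fxyd2, and some genes under this rule are not reported here. An exact permutation of 2 against 2 libraries cannot go below 0.333 and was not used. Transcripts were compared with BLAST 2.17.0 (at least 95% identity over 100 bases). R 4.3.3, limma 3.58.1, Python 3.11.15, pandas 2.3.3 and matplotlib 3.10.9 were used. Alternatives covered the pseudocount, filter, scaling, trend, replicate block, fold threshold and leaving out each library.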

Additional observations from a re-analysis of the deposited data

How the results depend on the processing

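Fxyd2, Atp1b1 and Atp1b3 kept the sign of their log2 change under all 13 alternatives (2.68 to 3.47, 1.34 to 1.46 and -0.26 to -0.19), with the upper end of Fxyd2, 3.47, at a pseudocount of 0.1 TPM, which by construction weighs low values more. Fxyd1 kept its sign in 10 of 12 alternatives (-0.17 to 0.26), and Fxyd3, Fxyd5 and Fxyd6 passed the filter in 1 to 3 alternatives. Over all genes, 2867 were higher and 2938 lower. Requiring a fold of at least 1.5 left 1303 and 1408, and leaving out 1 library left 1768 (without shSafb replicate 1) to 2124 higher, with 1814 without shSafb replicate 2. Of the pump and transport genes, 4 (without shCtrl replicate 1) to 8 were lower, against 7. Of the neighbours, 0 to 2 were higher, against 1. Requiring the fold of 1.5 left 12 pump and transport genes higher and 6 lower. Without that requirement, 18 to 20 of them were higher in the settings that kept all libraries, against 19. With a replicate block 2540 genes were higher and 2686 lower, and 19 and 7 of the pump and transport genes, as without it. The block turned 1 call on a named gene: Tfdp2, the neighbour of Atp1b3, passed as lower (limma adjusted p = 0.0128, against 0.115). Deviations of same-numbered libraries, taken after scaling, correlated at -0.0641 over 13111 genes. This value measures only a shared gene-by-gene pattern, and a shift common to all genes would not enter it. With 2 libraries in each group, this cannot show whether same-numbered libraries were prepared together. Of 21 other tested genes under the naming rule that had a call, 17 kept it under every alternative in which they were tested and 4 did not. The unknown depth limits what can be said of genes under 1 TPM, among them Fxyd3, Fxyd5 and Fxyd6 in the controls.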

Other observations

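Several low genes of the same families and clusters, chosen after their values were seen, had groups that did not overlap without reaching the level for testing. Atp1a4, the alpha subunit of sperm, was at 0 and 0.0103 TPM in shCtrl and at 0.213 and 0.109 TPM in shSafb. Atp1b2, a beta subunit and adhesion molecule of glia, was at 0 and 0.0203 TPM in shCtrl and at 0.0901 and 0.0407 TPM in shSafb. Lgi4, which overlaps Fxyd3 on the opposite strand, was at 0.283 and 0.209 TPM in shCtrl and listed at 0 in both shSafb libraries. Hpn, which encodes the liver serine protease hepsin and lies 22021 bases from Fxyd3, was at 0.349 and 0.248 TPM in shCtrl and at 1.19 and 1.06 TPM in shSafb.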
